A study of Mus musculus with 123 samples.

Results

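The genes of the proteasome were followed in liver RNA of mice across diet, photoperiod and time of day. Members were taken by symbol: every listed gene whose symbol starts with Psma, Psmb, Psmc, Psmd, Psme, Psmf or Psmg, pseudogenes left out. The rule found 50 of the 15398 genes in the table, and all 50 were among the 14397 genes that passed the filter on low values and were tested. The rule used names alone and no measured value. By role the members comprised 8 alpha ring genes, 7 constitutive beta ring genes, 3 immunoproteasome genes, 6 ATPases and 3 other subunits of the base, 8 lid genes, 7 assembly chaperones, 6 activators or inhibitors, and 2 genes that are not subunits (Psmc3ip, and Psme3ip1, whose product binds the activator PA28 gamma).

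The mice (Mus musculus) were fed either of the diets that the labels call HFD (High Fat Diet) and LFD (Low Fat Diet), and lived under 3 photoperiods, named Equal, Long and Short light by the labels, and livers were taken at 6 zeitgeber times (ZT), every 4 h from ZT0 to ZT20. The 2 diets, 3 photoperiods and 6 times give 36 groups, 21 with 3 libraries and 15 with 4, in all 62 LFD and 61 HFD libraries. A diet with a photoperiod is called an arm below, and each of the 6 arms held 20 or 21 libraries. The labels do not state strain, sex, age, hours of light, the event that ZT0 is counted from, or the animals behind the libraries, so a p-value here reflects only how these samples vary, which may be partly technical. Hepatocyte markers were high in every library, with a summed level of 79700 to 139000 CPM (reads per mega reads of a library) in LFD and 56700 to 120000 in HFD. In whole liver, fewer cells of a type and less RNA per cell cannot be told apart.

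The proteasome degrades proteins that carry ubiquitin chains. Its barrel, the 20S core, is built from alpha rings that gate the entrance and beta rings of which 3 kinds of subunit cut peptides. The 19S cap binds the ubiquitin chain, removes it and threads the substrate into the core. Its base holds a ring of ATPases and its lid holds the deubiquitinating enzyme. Interferon replaces the cutting subunits by those of the immunoproteasome, which serves antigen presentation, and the transcription factor NRF1 (Nfe2l1) raises the constitutive genes together when proteasome activity falls short.

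Some libraries stood apart from their groups, and results that rest on them are given with and without them. In Equal light on HFD, replicate 1 at ZT20 and replicate 2 at ZT4 were the farthest of all libraries from their groups. In these libraries the lid gene Psmd3 was at 5.17 and 5.68 log2 CPM and the proteasome activator gene Psme4 at 8.07 and 7.84, and 33 and 22 of the 50 members lay more than 0.3 from the mean of the other libraries of their group. Psmb10, an immunoproteasome gene, was at 2.29 in the first, against 4.15 to 4.42 in the other libraries of that group. In 4 further libraries the clock genes Arntl and Dbp lay more than 2 log2 units from the median of the rest of the group, in opposite directions. They are LFD Long light ZT8 replicate 1, LFD Equal light ZT12 replicate 4, LFD Long light ZT16 replicate 2 and HFD Equal light ZT16 replicate 2. Their clock genes go against the labelled group, the labels were kept, and the margin was chosen after the data had been seen. Markers of skeletal muscle or exocrine pancreas were high (mean above 4 log2 CPM) in 19 libraries, more of them on LFD than on HFD.

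All constitutive core and cap genes were abundant, and the immunoproteasome genes were present at a lower level. Per kilobase of exon, the mean level over all libraries was highest for the alpha ring gene Psma6, at 6.10 log2 CPM per kb, followed by the beta ring genes Psmb4 at 5.72 and, after the ATPase Psmc1 at 5.68, Psmb6 at 5.59. Apart from Psma8, the alpha ring ran from 4.16 (Psma3) upward. Among the constitutive cutting subunits, Psmb6 is beta 1, Psmb7 is beta 2 and stood at 4.42, and Psmb5 is beta 5 and stood at 5.58. Their immunoproteasome replacements were lower on the same per-length scale, with Psmb9 (beta 1i) at 2.28, Psmb10 (beta 2i) at 3.77 and Psmb8 (beta 5i) at 2.87. The lowest members were Psmc3ip, a meiotic recombination cofactor rather than a proteasome subunit, at -1.85 and Psma8, the alpha subunit of testis, at -1.45. Psma8 reached 1 CPM in 51 libraries and Psmc3ip in 5. Psme2b, a near-copy of Psme2 that reached 1 CPM in 14 libraries, may share reads with it, and its value is uncertain.

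**Figure D1:**
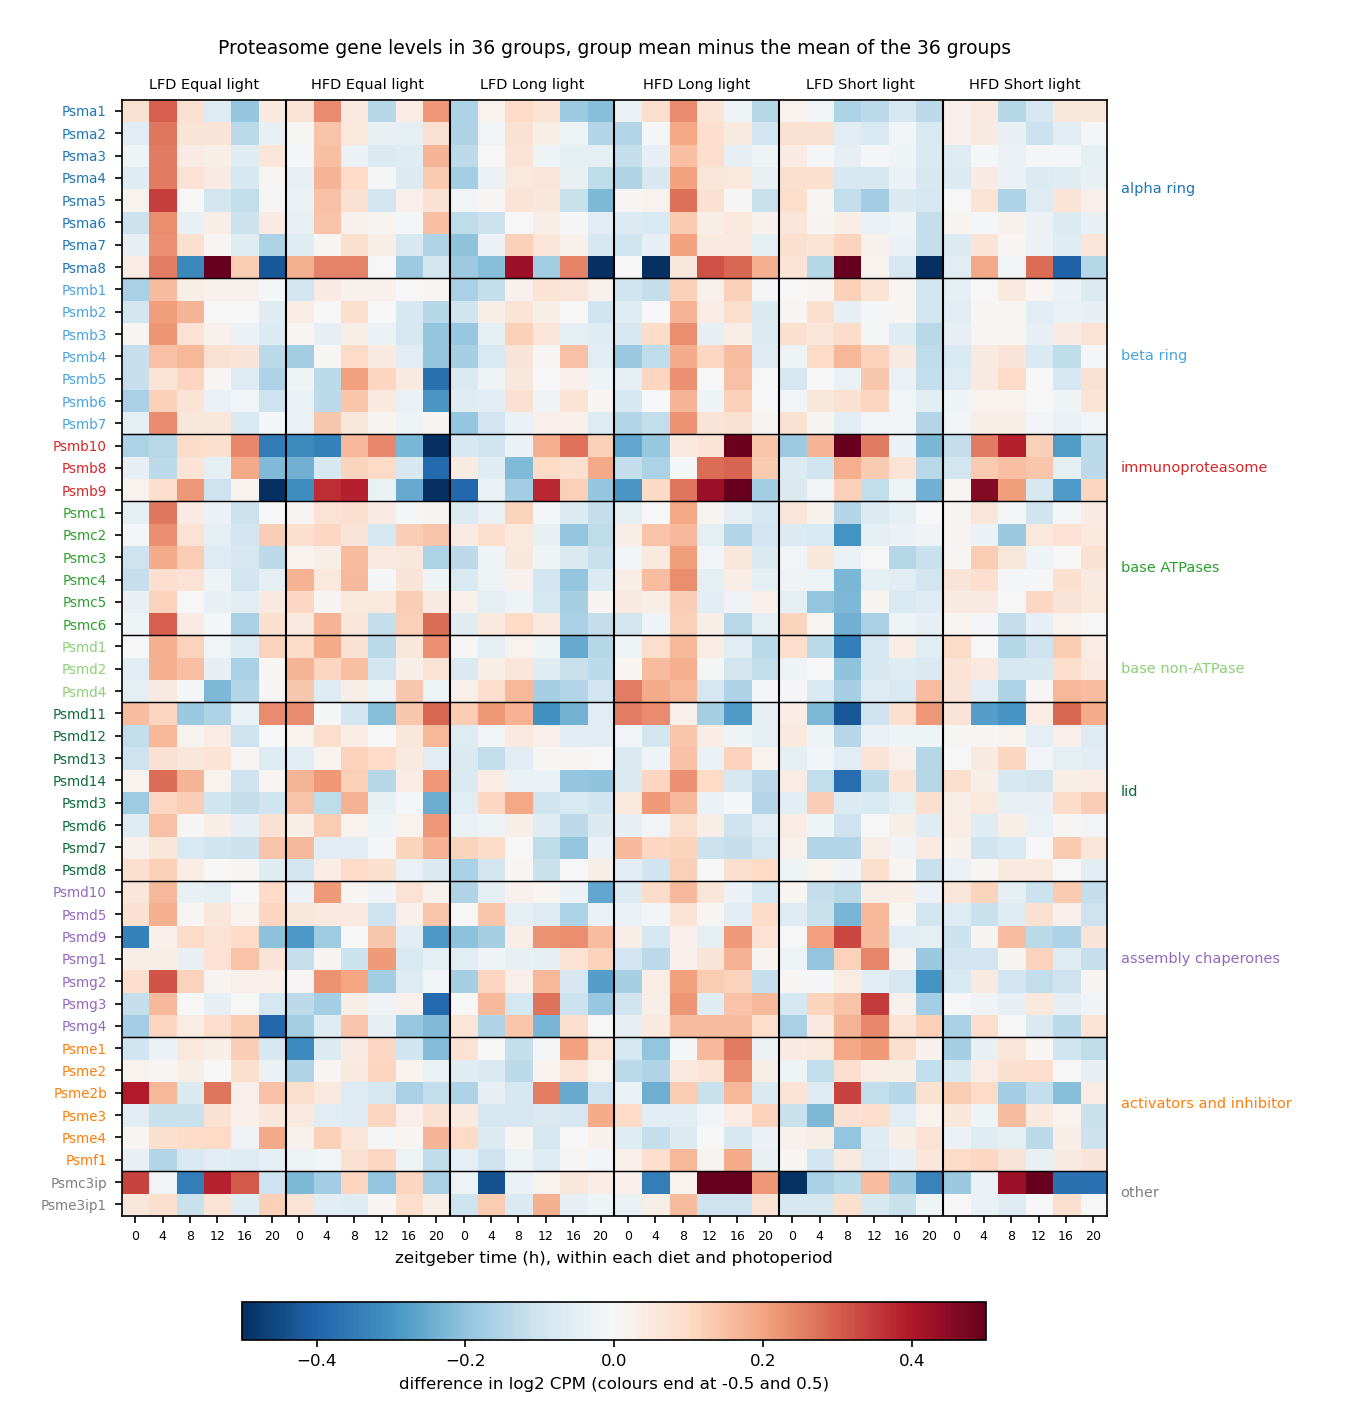
Level of each of the 50 proteasome genes (rows, by role) in the 36 groups (columns, by diet and photoperiod and then by ZT in h), as the group mean log2 CPM minus the mean of the 36 groups. The immunoproteasome rows and Psmd11 change color along the hours of each arm more than most core and cap rows.

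The stretches before and after the RefSeq gene start are shown for the member with the clearest daily cycle, Psmd11, for the immunoproteasome genes, which cycled at other hours, and for Psmb5, which Psmb8 replaces. Each runs 5′ to 3′ on the strand of the gene, from 250 bases before the start to the 50 bases from the start on, in RefSeq GRCm38.p6. Capitals mark matches on either strand to the motifs searched. Psmd11 is at chr11:80428365-80428664 (plus strand), Psmb5 at chr14:54617946-54618245 (minus), Psmb8 at chr17:34197945-34198244 (plus), Psmb9 at chr17:34187281-34187580 (minus) and Psmb10 at chr8:105938343-105938642 (minus).
Psmd11: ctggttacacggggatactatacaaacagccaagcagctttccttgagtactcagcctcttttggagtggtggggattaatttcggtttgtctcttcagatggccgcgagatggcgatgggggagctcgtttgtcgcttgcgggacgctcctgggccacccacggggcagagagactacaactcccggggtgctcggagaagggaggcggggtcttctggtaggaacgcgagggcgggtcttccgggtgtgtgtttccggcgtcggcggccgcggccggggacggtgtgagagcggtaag
Psmb5: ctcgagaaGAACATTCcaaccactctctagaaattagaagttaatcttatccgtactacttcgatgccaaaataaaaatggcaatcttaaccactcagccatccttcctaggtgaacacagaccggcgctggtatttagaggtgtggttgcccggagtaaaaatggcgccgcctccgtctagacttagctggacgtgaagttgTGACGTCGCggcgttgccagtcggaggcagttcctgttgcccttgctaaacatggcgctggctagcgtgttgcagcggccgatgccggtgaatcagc
Psmb8: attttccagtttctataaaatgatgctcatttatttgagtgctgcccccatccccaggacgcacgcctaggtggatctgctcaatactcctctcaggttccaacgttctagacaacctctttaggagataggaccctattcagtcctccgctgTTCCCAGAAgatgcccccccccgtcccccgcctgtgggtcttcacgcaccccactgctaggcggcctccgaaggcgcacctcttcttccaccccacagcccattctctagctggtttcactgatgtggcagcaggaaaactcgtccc
Psmb9: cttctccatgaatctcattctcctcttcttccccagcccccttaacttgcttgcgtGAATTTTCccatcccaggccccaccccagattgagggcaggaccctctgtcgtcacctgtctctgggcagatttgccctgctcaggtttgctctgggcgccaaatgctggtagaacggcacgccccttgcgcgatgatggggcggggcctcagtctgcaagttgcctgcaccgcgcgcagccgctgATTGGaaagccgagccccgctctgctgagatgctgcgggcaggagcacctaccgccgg
Psmb10: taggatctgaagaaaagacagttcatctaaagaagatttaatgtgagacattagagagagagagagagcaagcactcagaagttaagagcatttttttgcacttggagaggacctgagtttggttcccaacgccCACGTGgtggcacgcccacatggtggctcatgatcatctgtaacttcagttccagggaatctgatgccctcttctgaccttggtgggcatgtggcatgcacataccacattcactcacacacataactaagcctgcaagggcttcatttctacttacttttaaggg

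Psmd11 held none of the 6 motifs in this window. Psmb5 held a heat shock element (GAANNTTC) at -242 and an antioxidant response element (TGACNNNGC), the letters that NRF1 and NRF2 read, at -47 from the start. Psmb8 held a gamma interferon activated site (TTCNNNGAA) at -97, Psmb9 a heat shock element at -194 and a CCAAT box (CCAAT) at -8, and Psmb10 an E-box (CACGTG), the letters that clock factors read, at -116. RefSeq promoters were matched for 42 members, and not for Psma8, Psmb1, Psmb2, Psmb7, Psmc3, Psmd3, Psmd7 and Psmg2. The antioxidant response element was in 6 of the 42 (14.3%), against 14% of the promoters of all 27025 symbols. The interferon element GAAANNGAA was in 7 (16.7% against 9.8%), and in 0 of the 3 immunoproteasome windows. The windows of Psmb8 and Psmb9 lie inside the genes as GENCODE places them, with starts at 34197721 and 34187764. The stretches before those starts were not searched, so the lack of a match does not cover them. The E-box was in 5 (11.9% against 8.1%) and the CCAAT box in 15 (35.7% against 41.1%). The gamma interferon activated site was in 3 (7.1% against 9.6%), as was the heat shock element (7.1% against 9.0%). A match describes letters only.

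The first comparison asked how the diets differ, over all photoperiods and times. On HFD the 19S cap leaned higher and no gene of the 20S core was called, although the core genes Psmb5 and Psma1 passed under some of the alternatives below. With limma and Benjamini-Hochberg adjustment over all tested genes, 9 of the 50 members were called, 8 higher and 1 lower on HFD. Of all tested genes, 25.5% were called (12.9% higher and 12.6% lower), so the share of members called was below the background. Of the 17 cap genes 7 were called higher, and all 17 differences were positive, with a median of 0.046 log2 and a range from 0.023 to 0.114. Of the 15 core genes 0 were called, 8 were positive and the median was 0.013. Over all tested genes the median was -0.004.

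Psmc4, the ATPase Rpt3 of the base (ENSMUSG00000030603, chromosome 7, 28041707 to 28050101, minus strand, mm10), had the largest difference. Its LFD libraries ran from 5.77 through a median of 6.16 to 6.44 log2 CPM, and its HFD libraries from 5.70 through 6.27 to 6.56. The groups overlap over most of their range. The means were 6.16 ± 0.13 (SD, n = 62) and 6.27 ± 0.14 (SD, n = 61). The log2 difference was 0.114 with a standard error (SE) of 0.025 (limma adjusted p = 0.000182), and HFD was higher in 17 of 18 pairs of groups matched for photoperiod and time.

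Psmc5, the ATPase Rpt6 (ENSMUSG00000020708, chromosome 11), ran from 5.48 through 5.83 to 6.08 in LFD and from 5.56 through 5.92 to 6.18 in HFD. It was 0.094 higher on HFD (SE 0.024, limma adjusted p = 0.00153), in 16 of 18 matched pairs. Psmd2, the base scaffold Rpn1 that holds ubiquitin-like shuttle proteins (ENSMUSG00000006998, chromosome 16), ran from 7.22 through 7.53 to 7.81 in LFD and from 7.28 through 7.62 to 7.86 in HFD. The libraries of both diets overlap in both genes. The Psmd2 difference was 0.072 (SE 0.020, limma adjusted p = 0.00348), in 15 of 18 pairs.

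The other cap genes called higher were Psmd4, the ubiquitin receptor Rpn10 (0.081, SE 0.026), and Psmd14, the deubiquitinase Rpn11 of the lid (0.088, SE 0.034), with limma adjusted p of 0.0138 and 0.0471. Psmc3, the ATPase Rpt5, rose by 0.068 (adjusted p = 0.0156) and Psmd1, the scaffold Rpn2, by 0.067 (adjusted p = 0.041). These last 2 were named after their values had been seen. Exons of Psmc3 overlap those of Slc39a13 on the other strand by 147 bases, and no source used here gives the strand setting of the counting. Psmd1 and Psmd14 were lost when any of the replicate numbers 1 to 4 was left out and without the 2 farthest libraries, and Psmc3 without replicate 2, 3 or 4. Without the 19 libraries high in markers of muscle or pancreas Psmd1, Psmd4 and Psmd14 were lost, and Psmd4 also without replicate 3.

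In the core, Psma1 differed by 0.068 (limma adjusted p = 0.0631) and Psma5 by 0.046 (adjusted p = 0.205), the alpha genes with the smallest p. In the beta ring these were Psmb4, with a difference of -0.043 (adjusted p = 0.175), and Psmb7, at 0.029 (adjusted p = 0.358). None of the 7 assembly chaperones was called. Psmd9, a chaperone of base assembly, differed by -0.069 (adjusted p = 0.0992) and was called without replicate 3 and without the 4 libraries whose clock genes stood apart, and Psmd10, the chaperone gankyrin, by 0.046 (adjusted p = 0.166).

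Of the genes that bind the ends of the core, 1 rose and 1 fell with all libraries included. Psme4 was called as well without the 2 libraries farthest from their groups. Psmf1, the inhibitor PI31 (ENSMUSG00000032869, chromosome 2), ran from 4.67 through 4.93 to 5.25 in LFD and from 4.58 through 5.07 to 5.34 in HFD, a rise of 0.084 (SE 0.026, limma adjusted p = 0.011) in 16 of 18 pairs. Psme1, the PA28 alpha subunit of the activator that interferon induces (ENSMUSG00000022216, chromosome 14), ran from 5.75 through 6.12 to 6.35 in LFD and from 5.65 through 5.97 to 6.41 in HFD. It fell by 0.091 (SE 0.025, limma adjusted p = 0.00406) and was higher on HFD in 4 of 18 pairs. Its partner Psme2, PA28 beta, differed by 0.019 (adjusted p = 0.473). Psmf1 lost its call without replicate 3 and Psme1 without replicate 1.

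None of the 3 immunoproteasome genes was called between the diets. Psmb8 ran from 4.18 through 4.68 to 5.20 in LFD and from 3.66 through 4.62 to 5.17 in HFD, a difference of -0.001 (limma adjusted p = 0.986). Psmb9 ran from 3.41 through 4.07 to 4.82 and from 3.18 through 4.23 to 4.90, a difference of 0.105 (adjusted p = 0.119). Psmb10 ran from 4.00 through 4.55 to 5.34 and from 2.29 through 4.48 to 5.20, a difference of -0.079 (adjusted p = 0.277). The diets overlap over nearly the whole range in each. Kupffer cell markers moved with the diet, with 8 of 11 called higher on HFD, against 12.9% of all tested genes. Their summed level ran from 301 through 437 to 822 CPM in LFD and from 339 through 505 to 921 in HFD. Of 5 dendritic cell markers 3 were called higher. Of 10 pancreas markers 9 were called lower, against 12.6% of all tested genes. The diet calls of the other marker lists are not given here. The part of these cells in the diet differences was not tested.

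**Figure D2:**
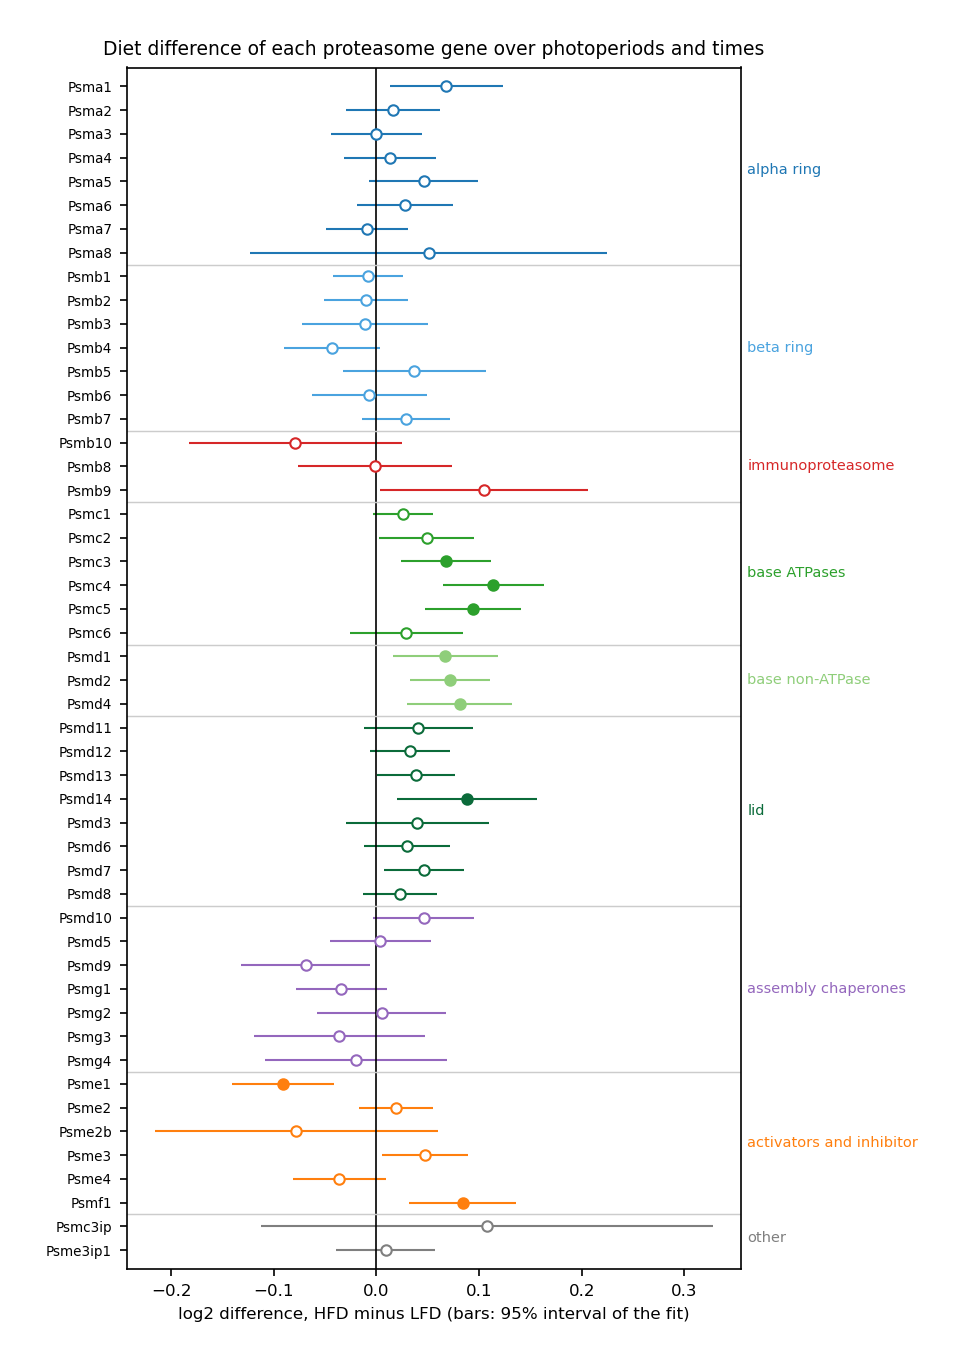
Difference of each proteasome gene between the diets, HFD minus LFD in log2 units (x axis), with the 95% interval of the limma fit, by role. All 17 cap genes lie above 0, while the 15 core genes lie on both sides.

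Without the 2 libraries farthest from their groups, 11 members were called, 7 of them shared with the 9. Those added were the core gene Psmb5, the cap genes Psmd3 and Psmd13, and the activator gene Psme4. With all libraries the Psme4 mean was 7.4 in LFD and 7.36 in HFD. Without the 19 libraries high in markers of muscle or pancreas, 6 were called, and 4 of the cap genes. Leaving out 1 replicate number at a time, 5 or 6 members and 3 to 5 cap genes were called, and without replicate 3 only 4 of the 9 were among them. Without the 4 libraries whose clock genes stood apart, 13 were called, all 9 among them, with 9 cap genes and the core gene Psma1. Psma1 was also called with the library number as covariate and with the 24 h cosine in place of group means. The share of all genes called in each of these fits is not given here. The counts thus show which calls depend on the libraries used, and not how the members stand against all genes.

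Within single photoperiods few members passed. In Equal light 0 of 50 were called (6.85% of tested genes were), 3 at an unadjusted p under 0.05 (20.1% of genes) and 0 with limma-voom. In Long light Psmc4 was called higher on HFD (0.134, limma adjusted p = 0.0476), against 4.86% of genes, and it was lost with limma-voom, where 0 were called. In Short light Psmc5 was called higher (0.148, limma adjusted p = 0.0156) and Psme1 lower (-0.16, adjusted p = 0.0137), against 6.88% of genes, and without replicate 1 or replicate 3 none was. The cap median was 0.04 in Equal, 0.063 in Long and 0.068 in Short light, with 16, 16 and 17 of the 17 genes positive. The test of the difference itself, diet by photoperiod, called 0 members and 0% of genes, with 0 members at an unadjusted p under 0.05 (3.35% of genes) and 0 by limma-voom. Diet by time likewise called 0 members and 0% of genes, with 0 members at an unadjusted p under 0.05 (2.36% of genes) and 0 by limma-voom. The members nearest to a call were Psme1, Psmd8 and Psmg4 in the first of these tests and Psme2, Psmd7 and Psma8 in the second.

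In levels averaged over the day, no proteasome gene was called between photoperiods. Long against Short light called 0 members and 0% of genes, and 0 members at an unadjusted p under 0.05 (2.79% of genes). Long against Equal light called 0 members and 0.0278% of genes, and Short against Equal 0 members and 0.00695%. In these last 2 comparisons 16 and 20 members had an unadjusted p under 0.05 in limma, against 14.6% and 16.6% of genes, and 12 and 15 without the 2 libraries farthest from their groups, both of which are in Equal light, against 9.73% and 11.6% of genes in that fit. Limma-voom called 0 members in each. The core median was -0.027 in Long and -0.041 in Short relative to Equal light, and the cap median -0.041 and -0.05. Psmb10 differed by 0.179 in Long and 0.193 in Short light (limma adjusted p = 0.212 and 0.136), and by 0.114 and 0.129 without the 2 farthest libraries (adjusted p = 0.396 and 0.238).

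The next question was whether levels follow the time of day, tested as a 24 h cosine wave. Over the 6 arms together 37 of the 50 members had a daily cycle, against 50.5% of all tested genes. These were 13 of 15 core genes, 12 of 17 cap genes, 3 of 3 immunoproteasome genes, 5 of 7 chaperones and 3 of 6 activators or inhibitors. Leaving out 1 replicate number at a time left 21 to 34 members, with 21 without replicate 1. The share of all genes in these fits is not given here, so the fall is not read as a result about the members. The amplitudes in the mean wave of the arms were small. The smallest p-values belonged to Psmd11, Psmb4, Psma7 and Psmb10, with amplitudes of 0.164, 0.115, 0.092 and 0.223 log2. The mean wave averages arms whose peaks lie at different hours, so waves shifted between photoperiods partly cancel in it. This lowers the amplitudes and the calls of such genes. Psmd1 and Psmd14 were not called over the arms (limma adjusted p = 0.0515 and 0.0565). Between Long and Short light their cycles differed (limma adjusted p = 1.29e-05 and 0.000786). An amplitude is the distance from the mean to the peak.

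Psmd11 encodes Rpn6, the lid subunit that clamps core and cap together (ENSMUSG00000017428, chromosome 11, 80428615 to 80473248, plus strand, mm10). In Short light on LFD its 3 libraries at ZT8 were at 6.20, 6.23 and 6.28 log2 CPM and the 4 at ZT20 at 6.92, 6.86, 6.83 and 6.91. In Short light on HFD the ZT8 libraries were at 6.37, 6.34, 6.37 and 6.39 and those at ZT16 at 7.02, 6.83 and 7.0. Low and high hours do not overlap on either diet. Here and below, the hours set side by side were picked after these values had been seen. A lack of overlap between them is a description and not a test.

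In Long light on HFD the Psmd11 libraries at ZT0 were at 6.84, 6.89, 6.93 and 7.03 and those at ZT16 at 6.34, 6.35 and 6.45. Long light thus had its low values at an hour that was high in Short light. In Equal light on LFD the ZT8 libraries were at 6.54, 6.37 and 6.52 and the ZT20 libraries at 6.92, 6.85 and 6.93. In Equal light on HFD the ZT0 libraries were at 6.91, 6.87 and 6.91, while ZT12 held 6.83 beside 6.28 and 6.23.

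Psmd11 cycled in all 6 arms. Its amplitude was 0.213 log2 (SE 0.046) in LFD Equal, 0.262 (SE 0.043) in LFD Long, 0.290 (SE 0.044) in LFD Short, 0.242 (SE 0.046) in HFD Equal, 0.277 (SE 0.046) in HFD Long and 0.305 (SE 0.045) in HFD Short light. The limma adjusted p ran from 7.6e-07 in HFD Short to 0.00122 in LFD Equal light. It was the only member called in 6 arms, and without replicate 1 it was called in 5. Of the 50 members 20 were called in 0 arms (40%), against 48.5% of all tested genes, and 592 genes (4.11%) were called in 6.

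Psmd7, the lid subunit Rpn8 that pairs with the deubiquitinase Psmd14 (ENSMUSG00000039067, chromosome 8, 107580381 to 107588464, minus strand), followed the same hours with a smaller wave. In Long light on HFD its ZT0 libraries were at 6.10, 6.13, 6.20 and 6.21 and its ZT16 libraries at 5.83, 5.85 and 5.97, which do not overlap. It was called in 5 arms, with amplitudes from 0.106 to 0.159, and reached 0.089 with a limma adjusted p of 0.0911 in LFD Short light. In LFD Long light at ZT16, replicate 2, whose clock genes go against its group, was at 6.16 for Psmd7 against 5.64 to 5.74 and at 6.87 for Psmd11 against 6.14 to 6.42. In LFD Equal light at ZT12, replicate 4 was at 6.97 for Psmd11 against 6.22 to 6.45. In the other such libraries Psmd11 lay within or at the edge of its group, at 6.73 against 6.73 to 6.96 in LFD Long light ZT8 replicate 1 and at 6.76 against 6.75 to 6.89 in HFD Equal light ZT16 replicate 2. Without the 4 such libraries Psmd11 still had a call in 6 arms.

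**Figure D3:**
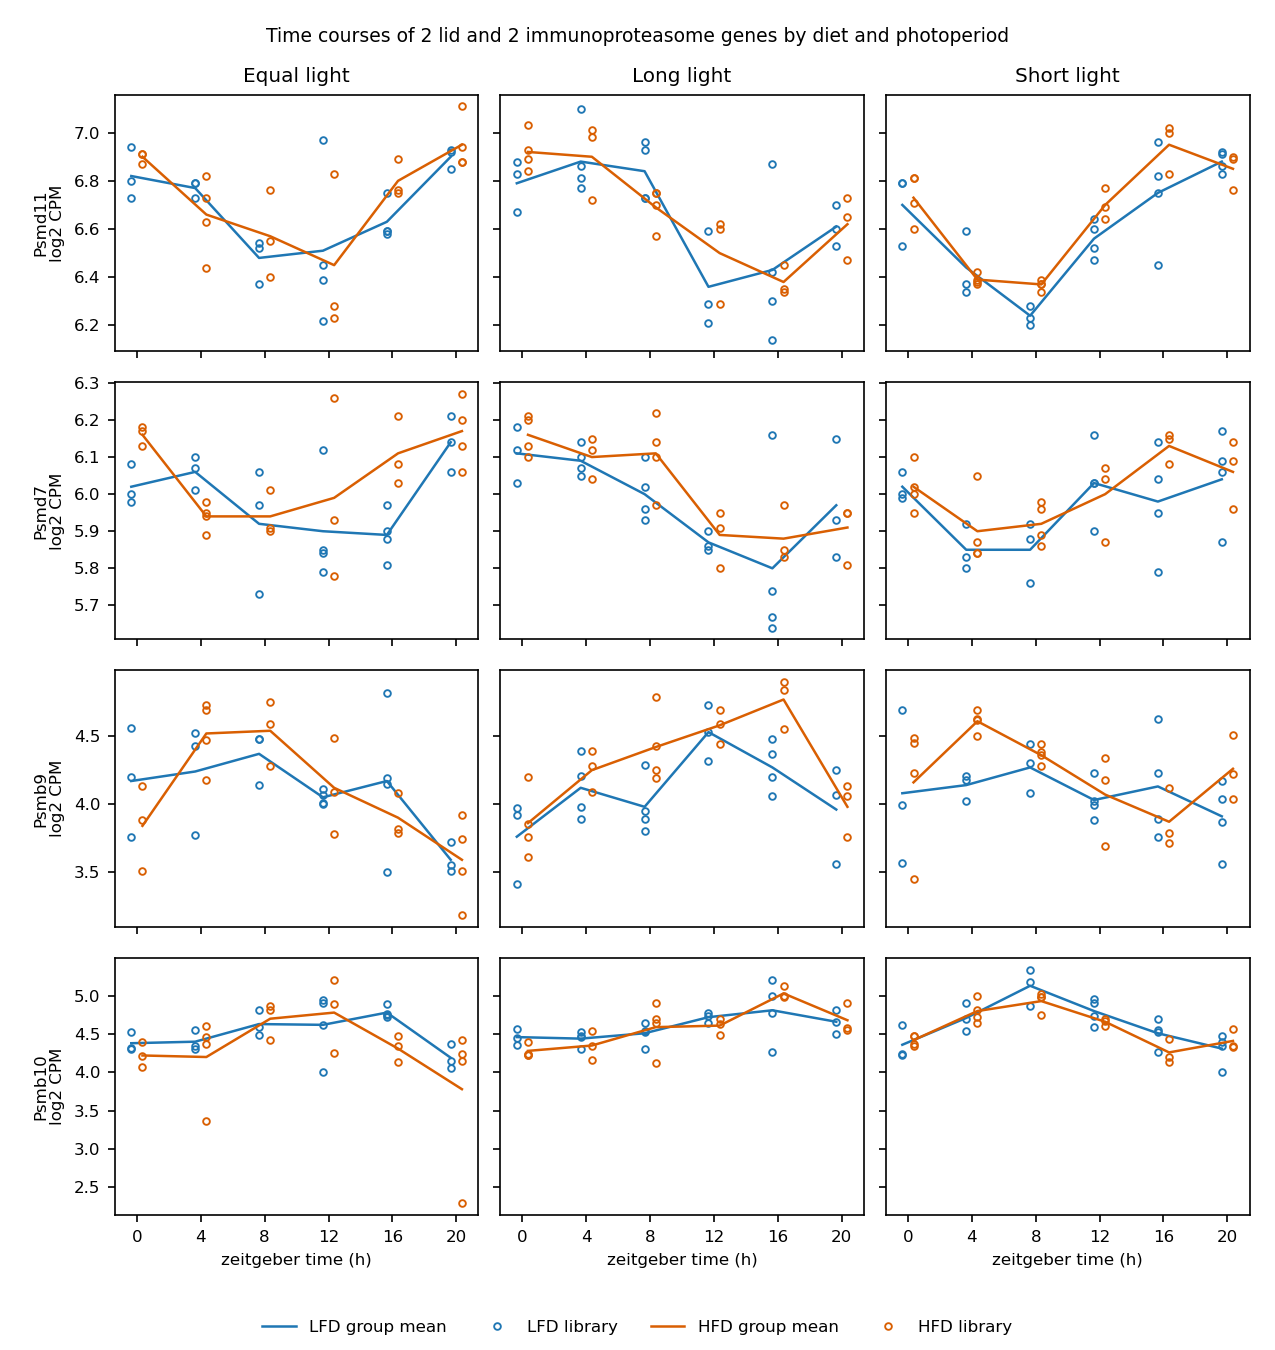
Levels of the lid genes Psmd11 and Psmd7 and the immunoproteasome genes Psmb9 and Psmb10 (log2 CPM) by zeitgeber time (h) under each photoperiod. Circles are libraries and lines join group means, by diet. The lid genes are low in Short light at ZT8 and in Long light at ZT16, and Psmb10 is high near those hours.

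Psmb10, beta 2i of the immunoproteasome (ENSMUSG00000031897, chromosome 8, 105935735 to 105938444, minus strand), was high when Psmd11 was low. In Short light on LFD its ZT8 libraries were at 5.18, 5.34 and 4.87 and its ZT20 libraries at 4.35, 4.01, 4.47 and 4.40. In Long light on HFD its ZT16 libraries were at 5.13, 4.98 and 4.99 and its ZT0 libraries at 4.23, 4.40, 4.23 and 4.24. These hours do not overlap. It was called in 4 arms, namely LFD Short (amplitude 0.376, SE 0.087) and all 3 HFD arms (0.443, 0.311 and 0.321, in the order Equal, Long and Short).

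Psmb9, beta 1i (ENSMUSG00000096727, chromosome 17, 34181987 to 34187764, minus strand), was called on HFD in Equal light (amplitude 0.487, SE 0.089, limma adjusted p = 0.000141) and in Long light (0.40, SE 0.090, adjusted p = 0.00197). On HFD in Equal light the ZT8 libraries were at 4.28, 4.59 and 4.75 and the ZT20 libraries at 3.18, 3.74, 3.92 and 3.51, without overlap. In LFD Equal and Long light its amplitudes were 0.235 and 0.266 and it was not called (adjusted p = 0.138 and 0.0648). Its exons overlap those of Tap1 on the other strand by 212 bases, and Tap1 cycled in the same arms (adjusted p = 0.0214 and 0.0152) with peaks at ZT5.85 and ZT7.25, against ZT7.15 and ZT12.27 for Psmb9. The part of Tap1 reads in the Psmb9 values was not tested. Psmb8, beta 5i (ENSMUSG00000024338, chromosome 17, 34197721 to 34201454, plus strand), was called in the same HFD arms, at an amplitude of 0.252 in each. Psme1 was called there too, with 0.191 and 0.204.

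Whether the cycle differs between the diets was tested directly, with 0 members called against 0.00695% of genes. There were 2 members at an unadjusted p under 0.05 (2.78% of genes), and limma-voom called 0. The larger number of immunoproteasome calls on HFD is therefore not shown to be a difference between the diets. Without the 2 libraries farthest from their groups, both on HFD in Equal light, Psmb9 and Psmb10 kept their calls in that arm (adjusted p = 0.00134 and 0.0069) and Psmb8 did not (adjusted p = 0.0721). None of the 11 Kupffer cell markers had a cycle over the arms, while 2 of 6 T and NK cell markers, 3 of 5 dendritic and 2 of 4 B cell markers did. Of all tested genes 50.5% had one.

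By arm, the count of cycling members followed the background of all genes in part. It was 12 in LFD Equal light (20.9% of all tested genes cycled there), 12 in LFD Long (23.6%), 7 in LFD Short (27.1%), 10 in HFD Equal (16.5%), 23 in HFD Long (21.8%) and 4 in HFD Short light (14.1%). In HFD Long light the 23 comprised 9 core, 7 cap and 3 immunoproteasome genes among others. In HFD Short light they were Psmb10, Psmd4, Psmd7 and Psmd11, with 0 of the 15 core genes. These counts depended on the libraries used: without the 2 farthest libraries HFD Equal had 5, where 11.3% of all genes cycled, and without the 4 libraries whose clock genes stood apart it had 18, where 22% did. HFD Long had 6 without replicate 3 and LFD Equal had 1 without replicate 1. For these last counts the share of all genes in the same fit is not given here, so they are not read as results about the members.

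The highest core levels of the 36 groups were at ZT4 and ZT8. The level of the class in a library is the median over its genes of the deviation from each gene's overall mean. It was 0.213 ± 0.15 log2 (SD, n = 3) at ZT4 in LFD Equal light and 0.205 ± 0.083 (SD, n = 4) at ZT8 in HFD Long light. At ZT0 in LFD Long light it was -0.146 ± 0.062 (SD, n = 3). Psmb4, the beta 7 subunit, was the core gene called in most arms, 5 of 6, with an amplitude of 0.192 (SE 0.040) in HFD Long light. Its libraries there were at 6.5, 6.56, 6.39 and 6.54 at ZT0 and at 6.93, 6.73, 7.14 and 6.69 at ZT8, which do not overlap. The cap was lowest in LFD Short light at ZT8, at -0.168 ± 0.059 (SD, n = 3), an hour at which the core of the same libraries was at 0.003 ± 0.067 (SD, n = 3).

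The hour of the fitted peak differed between photoperiods. The labels do not state the event that ZT0 is counted from. A shift of the cycle and a different start of ZT0 between photoperiods therefore cannot be told apart. The cycle differed between photoperiods for 29 members (49.1% of all tested genes) and between Long and Short light for 31 (52.9%), so the members were near the background in both. Psmd11 peaked at ZT18.68 (SE 0.41 h) in Short, ZT21.93 (SE 0.54 h) in Equal and ZT2.90 (SE 0.45 h) in Long light, both diets averaged. From Short to Long light that is 8.23 h later (SE 0.61 h), with a limma adjusted p of 2.73e-16 for the difference between the cycles. The clock gene Arntl moved by 7.86 h (SE 0.49 h) and Dbp by 8.28 h (SE 0.49 h), and the 592 genes cycling in all arms had a median of 7.97 h, with quartiles of 7.37 and 8.67 h.

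Of the 17 cap genes 11 were called. Psmd7 peaked 9.07 h later in Long than in Short light (SE 1.08 h, limma adjusted p = 1.72e-08) and Psmd4 8.09 h later (SE 1.11 h, adjusted p = 6.94e-07). Psmc2, the ATPase Rpt1, moved by 10.28 h (SE 1.29 h, adjusted p = 8.65e-07). For the 11 called the shift ran from 7.84 to 10.54 h, while Psmc3, Psmd8 and Psmd13, which were not called, had fitted shifts of 3.8 h (SE 1.91 h), 4.58 h (SE 2.16 h) and 4.87 h (SE 2.12 h). The 3 immunoproteasome genes moved by 6.85 h (Psmb8, SE 1.5 h), 7.25 h (Psmb9, SE 1.5 h) and 7.24 h (Psmb10, SE 1.18 h). Psmb10 peaked at ZT7.9 in Short, ZT10.55 in Equal and ZT15.14 in Long light, so that it was far from Psmd11 in each.

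Of the 7 beta ring genes 3 were called, with shifts from 4.40 to 6.65 h, and Psmb4 moved by 4.66 h (SE 1.35 h, limma adjusted p = 0.00353). Psma7, an alpha ring gene, moved by 4.58 h (SE 1.70 h), while Psma1 moved by 9.32 h (SE 2.01 h). Whether these shifts differ from that of the cap was not tested, and the standard errors of the small waves are wide. Over the 31 members called the median shift was 7.84 h. The chaperone genes Psmd5 and Psmd10 had fitted shifts of -10.57 h (SE 2.47 h) and -10.75 h (SE 4.08 h), counted as negative in that median. On a 24 h circle shifts of this size can be read as earlier or later in Long light, so their direction is not settled.

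**Figure D4:**
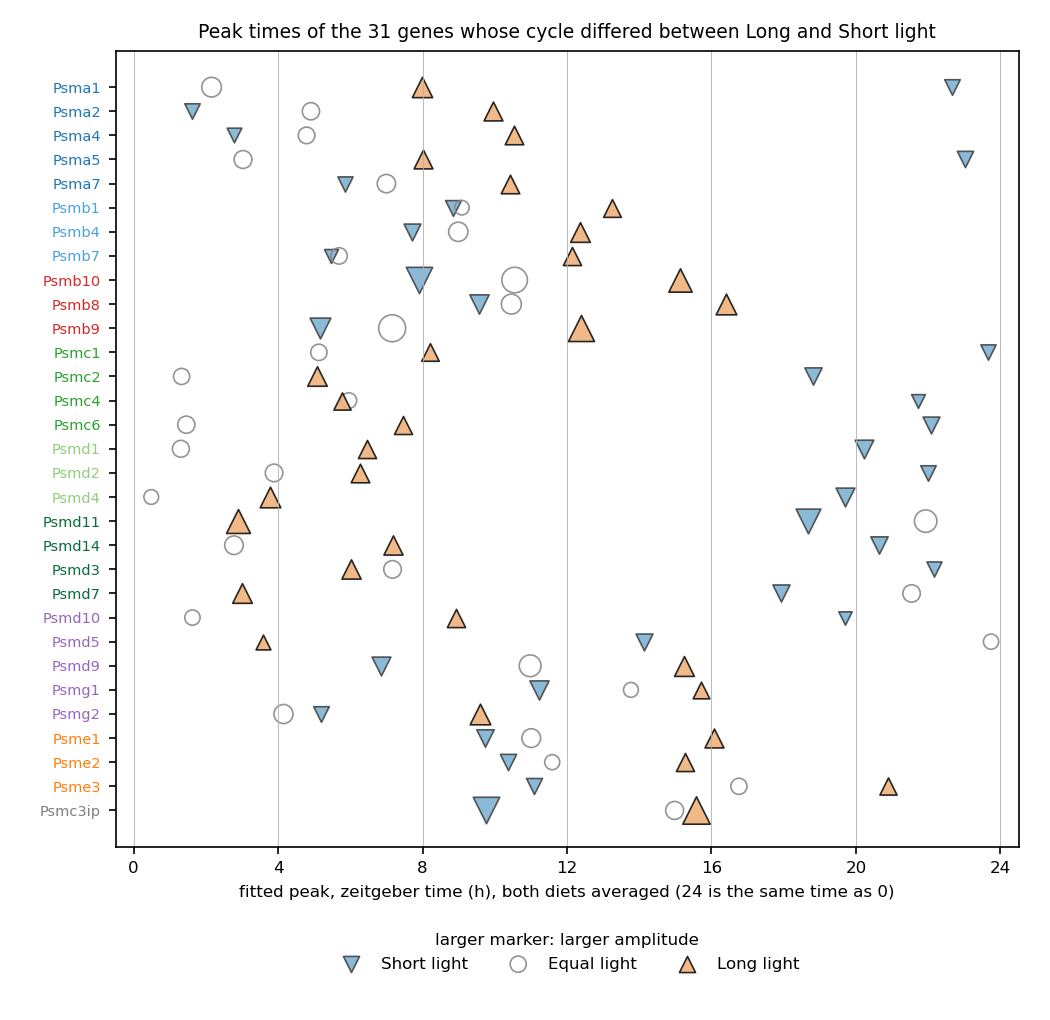
Fitted peak (x axis, zeitgeber time in h, both diets averaged) of the 31 proteasome genes whose cycle differed between Long and Short light, with 1 marker for each photoperiod and larger markers for larger amplitudes. Psmd11 peaks at ZT18.68 in Short and ZT2.90 in Long light, and Psmb10 at ZT7.9 and ZT15.14.

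Genes that work with the proteasome were read from lists. Of all tested genes, 12.9% were called higher and 12.6% lower on HFD. Of 8 genes of NRF1 control 5 were higher on HFD, with a median difference of 0.103 log2: Nfe2l1 itself by 0.132 (SE 0.033, limma adjusted p = 0.00147), Ngly1, the enzyme that removes its sugars, by 0.106 (adjusted p = 4.69e-05), and Ddi2, the protease that cuts it free, by 0.106 (adjusted p = 0.00269), together with Mafg and Vcp. Without the 19 libraries high in markers of muscle or pancreas, and without any 1 replicate number, 3 were called. Of 6 ubiquitin genes 2 were lower, among them Rps27a, which also encodes a ribosomal protein, with a difference of -0.247 (adjusted p = 2.19e-11). Among 16 listed partners of the proteasome, Ube3c, a ubiquitin ligase, was higher (0.056, adjusted p = 0.0156) and Txnl1, a cap-bound redox protein, lower (-0.119, adjusted p = 0.0105).

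In the list of interferon and antigen presentation, 3 of 14 genes were higher on HFD, against 12.9% of all tested genes. The median difference was 0.077. Among the genes called higher were the class I light chain B2m (0.094, limma adjusted p = 0.00145) and the peptide transporter Tap1 (0.133, adjusted p = 0.0069). The immunoproteasome genes themselves were not called. Over the arms 11 of the 14 genes cycled, as did 7 of the 8 NRF1 genes, 10 of the 16 partners and 4 of the 6 ubiquitin genes, against 50.5% of all tested genes.

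Within groups, genes of the core and of the cap varied together from library to library, and the immunoproteasome varied apart from them. Pearson's r was taken over deviations from group means in all libraries but the 2 farthest from their groups. Its median was 0.58 over pairs of core genes, 0.48 over pairs of cap genes and 0.43 between core and cap. It was 0.49 among the immunoproteasome genes and 0.01 between them and the core. Over all pairs of tested genes the median was 0. The closest pair was Psmd1 and Psmd14 (0.88) and the most opposed Psmb10 and Psmd11 (-0.59). The 4 libraries whose clock genes stood apart were kept in. Psmd11 was at 6.97 against 6.22 to 6.45 in LFD Equal light ZT12 replicate 4. It was at 6.87 against 6.14 to 6.42 in LFD Long light ZT16 replicate 2, and within or at the edge of its group in the others. The part of these libraries in the correlations was not tested. Effects of depth and composition that libraries may share were not tested, so these values are a description. With the 2 libraries farthest from their groups included the core median was 0.40 and the cap median 0.40.

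**Figure D5:**
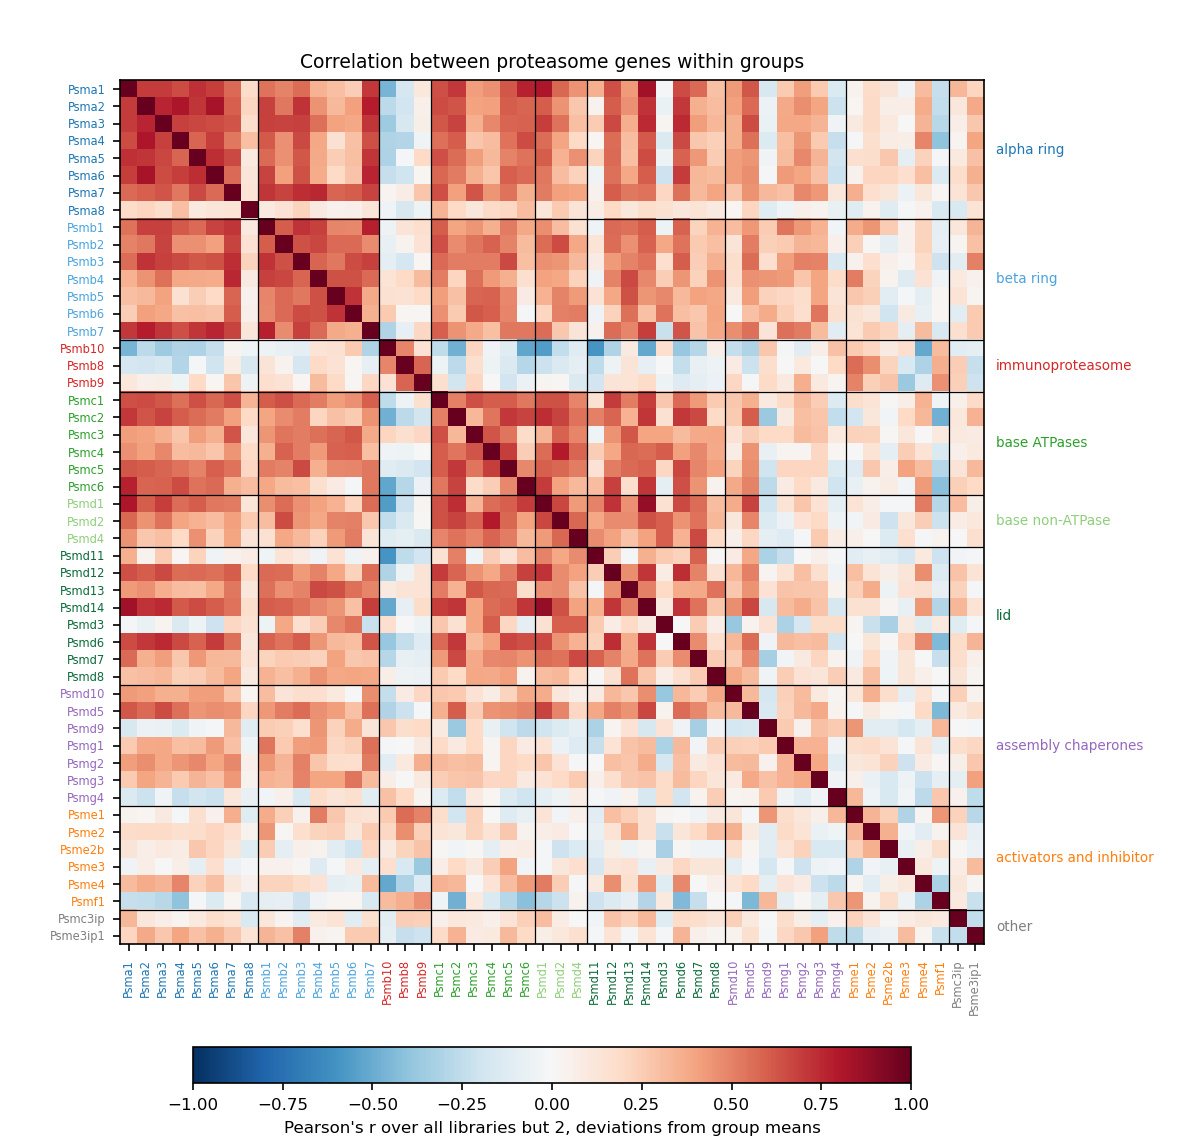
Pearson's r between each pair of the 50 proteasome genes over all libraries but the 2 farthest from their groups, from deviations of log2 CPM from group means, in the order of roles. Core and cap form a block of positive values (medians 0.58 and 0.48), and the immunoproteasome rows stand outside it.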

How the data were processed

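Poly-A RNA of mouse liver was sequenced as stranded TruSeq paired-end libraries, per the labels' protocols. The tools named in the submitters' processing notes are STAR, Subread 1.6.2 and featureCounts, on build mm10 (GRCm38). No source used here gives their options, the annotation or the normalization. Values are log2 CPM per library, in 1 table deposited by the authors. Its floor, -3.6124, equals a prior of 2 reads, which understates changes of low genes. Whole reads were recovered from 100% of values within 0.05 read, and gave a depth of 13.97 to 39.09 M reads (M, mega) per library (median 24.06 M). Of the columns, 0 had no sample. Among 153 pairs of libraries of a group, chi-square over degrees of freedom was never under 14.33, so none was counted as a duplicate.

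Genes reaching 1 CPM in 3 or more libraries were tested with limma 3.58.1 (R 4.3.3), with a variance trend. Levels used 1 mean per group with groups weighted equally, and cycles used a 24 h cosine per arm. Benjamini-Hochberg adjustment ran over 14397 genes, with a threshold of 0.05. Standard errors of peak times came from the delta method. The scripts were tested on simulated data. Alternatives were limma-voom on the recovered reads, other filters and scalings, and left-out libraries. Positions are from GENCODE mouse release 21, where 15379 identifiers matched. Level per kb uses exon length. The counting's strand setting is unknown, so overlapping genes are uncertain.

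Members, lists and tests were chosen with earlier results of these data known. Named members were the immunoproteasome genes, Psme1 and Psme2, the 2 of each other class with the smallest p between diets, the 4 with the smallest p for the cycle, the 3 with the smallest p for each interaction or cycle difference, every member of comparisons with 5 or fewer calls, and the highest and lowest per length. From each related list up to 3 genes with the smallest p were named, with Nfe2l1. Other genes were named after their values were seen. A few list genes are not reported here.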

Additional observations from a re-analysis of the deposited data

Results flagged for a closer look

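Class levels are the median over the genes of a class of the deviation from each gene's overall mean, in log2 units. In the 15 groups of 4 libraries, 45 tests of core, cap and immunoproteasome levels found 4 libraries far from the other 3 (Dixon's test), and chance gives about 1 in 20. The core of LFD Long light ZT8 replicate 2 was at -0.081 against 0.106 to 0.115. The immunoproteasome was at -0.441 in HFD Equal light ZT4 replicate 2, against 0.004 to 0.083, and this library is one of the pair farthest from their groups. It was at -0.009 in HFD Long light ZT0 replicate 1, against -0.303 to -0.301, and at -0.169 in HFD Short light ZT0 replicate 1, against -0.058 to -0.044.

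The daily cycle differed between photoperiods for 29 members and between Long and Short light for 31, by the limma test of the difference itself. Of all tested genes 49.1% and 52.9% were called, so the members were near that share. Between Long and Short light the adjusted p was 2.73e-16 for Psmd11, 1.72e-08 for Psmd7, 0.000171 for Psmb9 and 1.07e-05 for Psmb10.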

How the results depend on the processing

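The alternatives that left out libraries whose clock genes stand apart, and those of the cap, NRF1 and Psmd11 counts, were chosen after seeing the data. No paired analysis was possible because the labels give no replicate number shared between groups, and the numbers used here only name libraries in order of deposit. Counts of members called that moved by more than 1.5 times were as follows, and the cause was not tested. In this section no share of all genes in the same fit stands beside a count, so none is read as a result about the members. Without the 2 farthest libraries, HFD against LFD in Equal light called 2, and the cycle called 19 in LFD Long, 11 in LFD Short and 5 in HFD Equal light. Without the 19 libraries high in markers of muscle or pancreas, the diet called 0 in Long light, 4 cap genes and 3 NRF1 genes, and the cycle 3 in LFD Equal, 6 in LFD Long and 1 in HFD Short light. That leaves 1 library in LFD Long light at ZT20. Limma-voom and no filter on low values called 0 for the diet in Long light. Without the libraries whose clock genes stand apart, 2 were called there and 18 for the cycle in HFD Equal light.

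Leaving out 1 replicate number at a time gave 5 to 6 members for the diet, 0 to 0 in Equal, 0 to 1 in Long and 0 to 3 in Short light, with 3 to 5 cap genes and 3 to 3 NRF1 genes. For the cycle it gave 21 to 34 over all arms, 1 to 14 in LFD Equal, 4 to 14 in LFD Long, 2 to 9 in LFD Short, 4 to 10 in HFD Equal, 6 to 20 in HFD Long and 1 to 4 in HFD Short light, 20 to 30 for differences between photoperiods and 22 to 31 between Long and Short light. Psmd11 was called in 5 to 6 arms. Diet differences that turned their sign and moved by at least 1 SE, none of them called, were as follows. They were Psmc3ip (-0.035 to 0.276), Psmd8 (-0.001 to 0.037) and Psmg4 (-0.049 to 0.028) on leaving out 1 replicate number. Psma8 (-0.065) did so without those 19 libraries. Of the other checks on named members, 223 for the diet and 216 for the cycle stayed called or stayed uncalled. A call was lost in 10 and 24 and gained in 6 and 3. Uncalled diet differences that turned their sign by less than 1 SE count among the 223. The diet differences are small beside that spread, and single members near the threshold depend on the libraries used.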
